A study of Mus musculus with 12 samples.

Results

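The 34 genes described here encode the core machinery that builds an autophagosome and delivers it to the lysosome. They were chosen by name for their function, not by a measured value, though with earlier results of these data known. They are the ULK kinase complex (5 genes), the ATG2, ATG9 and WIPI proteins (7), the conjugation enzymes and ATG4 proteases (10), the ATG8 proteins (5), the scramblases of the endoplasmic reticulum (2) and proteins of the fusion step (5). All 34 were found among the 32721 genes of the table, and all 34 were among the 14279 genes that passed the filter on low values. RNA came from mouse embryonic fibroblasts (MEFs) with floxed Vps15 alleles (Vps15f/f), 5 days after adenoviral transduction. The Vps15KO EBSS group had received adeno-CRE, a virus that delivers Cre recombinase to delete the floxed stretch, and was kept for 2 h in EBSS, a medium free of amino acids. The WT EBSS group had received adeno-GFP and the same 2 h in EBSS. The Vps15KO basal and WT basal groups had received the same viruses and stayed in basal growth medium, high-glucose DMEM with serum. Each of the 4 groups held 3 libraries of poly-A RNA, 12 in all, and Vps15KO names the transduced cells as a whole and not a clone.

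All groups carried the floxed alleles and a virus, so adeno-CRE and the loss of Vps15 cannot be told apart, and the library names read pLEX_GFP and pLEX_CRE without a label that says what pLEX stands for. EBSS is a salt solution that also lacks serum and holds less glucose than the basal medium, so amino acids, serum and glucose cannot be told apart either. Nothing in the labels says that the 3 libraries of a group came from separate cultures, so p-values measure the spread between these libraries, which may be technical.

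Autophagy encloses part of the cytoplasm in a membrane sheet that closes into an autophagosome and fuses with a lysosome. When amino acids run short, mTORC1 no longer restrains the ULK complex, which starts the sheet. The class 3 PI3K complex, of which Vps15 is the regulatory subunit, then makes the lipid PI3P that recruits WIPI proteins, ATG2 and ATG9 supply lipid, and the conjugation enzymes attach ATG8 proteins to the membrane. The libraries measure transcripts and neither these proteins nor the flux of autophagosomes.

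The libraries held 21278921 to 21698584 reads in genes. Pik3r4, the gene of Vps15, averaged 632 ± 35.9 normalized counts in Vps15KO EBSS libraries against 895 ± 62.7 in WT EBSS libraries (mean ± SD, n = 3 each), a log2 difference of -0.48 ± 0.07 (SE), and 658 ± 36.7 in Vps15KO basal against 875 ± 10.3 in WT basal libraries, a difference of -0.40 ± 0.07. A normalized count is the number of reads divided by the size factor of its library. In bulk RNA, fewer cells with an intact gene, less transcript per cell and remaining transcript of a recombined gene cannot be told apart. The level left in Vps15KO therefore does not give the share of cells with intact Vps15. WT basal replicate 2 stood apart from its group in read counts (chi-square per gene of 21.4 against replicate 1, and 3.17 between replicates 1 and 3), and so did WT EBSS replicate 1 (8.22 and 11.9, and 3.84 between replicates 2 and 3). Of the fibroblast markers, Col1a1, Col1a2, Col3a1, Pdgfra, Pdgfrb and Vim were abundant, while Dcn, Lum and Fap were low and Thy1 had at most 3.18 normalized counts in any library. The summed level of the 10 fibroblast markers ranged from 176286 to 189014 normalized counts in Vps15KO EBSS libraries, from 377638 to 427414 in WT EBSS, from 194748 to 204326 in Vps15KO basal and from 437758 to 461115 in WT basal libraries. Sums of epithelial, endothelial, blood, muscle and neural markers stayed at or under 33.4 normalized counts, with Cd3e and Myog at 0. The sum is carried by Vim and the collagens, and not every marker was lower in Vps15KO. Fap ranged from 36.6 to 50.3 normalized counts in Vps15KO EBSS against 17.3 to 31.2 in WT EBSS libraries, and from 31.4 to 48.8 in Vps15KO basal against 16.9 to 27.0 in WT basal libraries, and Dcn overlapped between genotypes. The part of these marker differences in the results below was not tested.

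EBSS changed the transcripts of the machinery in both directions and in neither genotype raised them as a block. In Vps15KO cells 10 of the 34 genes were called higher after EBSS and 7 lower (29.4% and 20.6%). Over all 14279 genes tested, 25.9% were called higher and 26.1% lower in that comparison. In WT cells 13 of the 34 were called higher and 9 lower (38.2% and 26.5%), against 31.4% and 31.3% of all genes. A call is an adjusted p under 0.05 from limma, a linear model fitted to the deposited log2 values of all genes, with Benjamini-Hochberg adjustment over all genes of a comparison. These shares lay near those of all genes, and the counts alone do not set the machinery apart. The median log2 change of the 34 genes was 0.057 in Vps15KO and 0.075 in WT, and that of all genes -0.019 in Vps15KO and -0.015 in WT. At 1.5-fold or more, 4 of the 34 genes were called in Vps15KO and 6 in WT. Of all 14279 genes, 1874 were called at that size in Vps15KO and 3030 in WT. The effects in the genotypes rest on separate libraries. Of the genes called higher, 8 were shared, which is 8 of the 10 in Vps15KO and 8 of the 13 in WT. Of those called lower, 7 were shared, which is 7 of 7 in Vps15KO and 7 of 9 in WT. None was called in opposite directions. Over all genes tested, 79.9% of those called higher in Vps15KO and 65.8% of those in WT were shared, as were 75.7% and 63% of those called lower, and 175 were called in opposite directions, so the overlap among the 34 lay near that of all genes.

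Between genotypes, 13 of the 34 genes were called higher and 7 lower in Vps15KO than in WT cells in EBSS (38.2% and 20.6%), against 29.4% and 27.8% of all genes. In basal medium 11 were called higher and 5 lower (32.4% and 14.7%), against 29.3% and 29.2% of all genes. In EBSS the median log2 difference was 0.080 for the 34 genes and -0.001 for all genes, and in basal medium it was 0.072 and -0.009. Only Plekhm1, called in EBSS, differed by 1.5-fold or more. Of all 14279 genes, 2724 were called at that size in EBSS and 2699 in basal medium. In both media 7 genes were called higher (Atg2b, Atg9a, Atg3, Atg4c, Atg12, Gabarapl1 and Plekhm1) and 3 lower (Ulk2, Gabarap and Gabarapl2). Atg2b, Atg3, Atg12 and Gabarapl1 were the 4 genes called higher in all of the EBSS and Vps15KO effects, and 0 genes were called lower in all of them. These comparisons share libraries, so their calls are not independent of each other. Calls in both media, calls in all of these effects and genes without any call were not counted over all genes. Whether these counts set the 34 genes apart is therefore not known. Wipi1, Wdr45 and Tecpr1 had no call in any comparison.

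**Figure D1:**
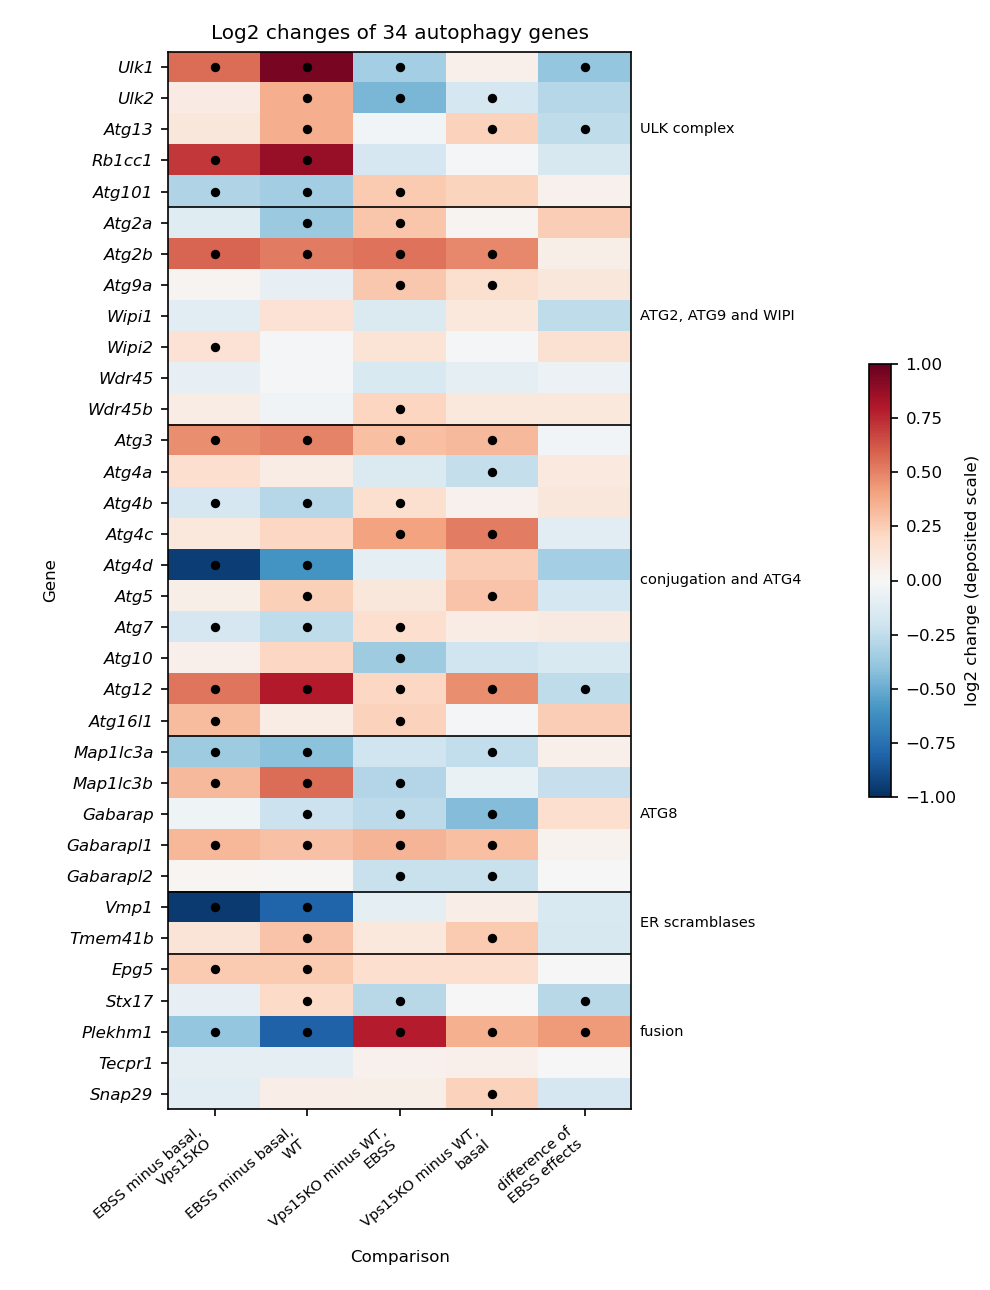
Log2 changes of the 34 genes (rows, by role) in the EBSS effects, the Vps15KO effects and the difference of the EBSS effects (Vps15KO minus WT); red is higher, blue lower, and a dot marks an adjusted p under 0.05. Ulk1, Rb1cc1, Atg12 and Atg2b are among the darkest red after EBSS and Vmp1, Atg4d and Plekhm1 among the darkest blue; between genotypes Plekhm1 in EBSS is the darkest at 0.79.

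Levels of different genes were compared as normalized counts per kilobase of the longest annotated transcript. On this scale the machinery spanned from Gabarap, the most abundant of the 34 in every group, to Atg4d, the least abundant in every group. Gabarap averaged 7140 ± 330.2 counts per kilobase in Vps15KO EBSS, 8581 ± 225 in WT EBSS, 7369 ± 356 in Vps15KO basal and 10032 ± 1745 in WT basal libraries (mean ± SD, n = 3 each). Atg4d averaged 20.8 ± 0.707 in Vps15KO EBSS, 22.6 ± 2.00 in WT EBSS, 44.0 ± 4.27 in Vps15KO basal and 36.6 ± 5.47 in WT basal libraries. Both places depend on the division by length. In normalized counts Atg10 lay below Atg4d in Vps15KO basal (120.7 against 261.7) and WT basal libraries (143.1 against 217.8), though not in EBSS libraries. Gabarapl1 lay above Gabarap in Vps15KO EBSS libraries (12292 against 9646), though not in the other groups. Gabarapl1 ranked second in all 4 groups, and Map1lc3b or, in Vps15KO basal libraries, Vmp1 came next. Within the ULK complex Rb1cc1 had the lowest mean per kilobase in all 4 groups, within the spread of Ulk2 in Vps15KO EBSS libraries. Atg4c, Atg10 and Stx17 shared the low end with Atg4d, together with Plekhm1 in WT EBSS libraries at 91.0 ± 5.31 counts per kilobase. Where neighbours in this order lie within their spreads, as Wipi2 and Wdr45 do in Vps15KO EBSS libraries (604 ± 22.7 and 632 ± 43.9), their order is not fixed by these data. A gene whose cells use a shorter transcript than the longest one is placed too low on this scale.

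**Figure D2:**
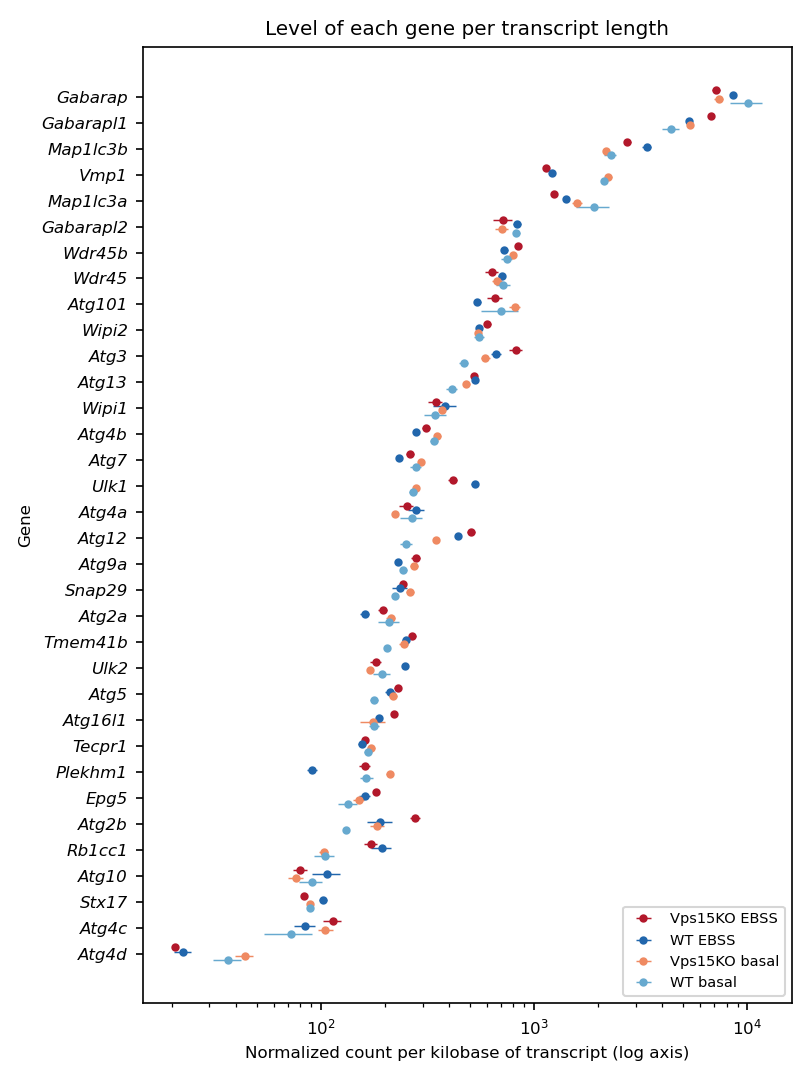
Normalized counts per kilobase of transcript (log axis) of the 34 genes, ordered by their level in WT basal libraries, with 1 point per group and bars of 1 SD over 3 libraries. Gabarap and Gabarapl1 lie far above the middle of the list, and Atg4d lies below all others at 20.8 to 44.0.

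The ULK complex held the largest rise of the 34 genes in each genotype. Ulk1, the kinase that starts autophagosome formation, had 2162, 2067 and 2263 normalized counts in Vps15KO EBSS libraries, against 1435, 1466 and 1479 in Vps15KO basal libraries. In WT it had 2835, 2772 and 2613 in EBSS libraries, against 1473, 1347.5 and 1401.5 in basal libraries. All EBSS libraries lay above all basal libraries, all Vps15KO EBSS libraries lay below all WT EBSS libraries, and the basal groups overlapped. The log2 change after EBSS was 0.56 ± 0.06 in Vps15KO (SE, adjusted p = 3.58e-07) and 0.95 ± 0.06 in WT (adjusted p = 2.15e-10). The Vps15KO effect was -0.34 ± 0.06 in EBSS (adjusted p = 8.51e-05) and 0.05 ± 0.06 in basal medium (adjusted p = 0.461). After correction of every library for its dependence on GC content and transcript length (called the length and GC correction from here on), the basal effect was 0.16 and called (adjusted p = 0.0131).

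Rb1cc1 encodes FIP200, the scaffold of the complex. It had 1363, 1349 and 1197 normalized counts in Vps15KO EBSS libraries, against 830.0, 759 and 767 in Vps15KO basal libraries. In WT it had 1644.5, 1437 and 1332 in EBSS libraries, against 859.8, 699.7 and 822 in basal libraries. EBSS and basal libraries did not overlap in either genotype, and the genotypes overlapped in both media. Rb1cc1 rose by 0.71 ± 0.09 in Vps15KO (adjusted p = 1.94e-06) and by 0.87 ± 0.09 in WT (adjusted p = 9.44e-08). Under the length and GC correction the changes were 0.43 in Vps15KO and 0.51 in WT, both still called, and the Vps15KO effect in EBSS, -0.17 ± 0.09 and not called (adjusted p = 0.103), was called at -0.21 (adjusted p = 0.00411).

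Atg13, the adaptor that links ULK1 to FIP200, differed between genotypes in basal medium. It had 1824, 1909 and 1901 normalized counts in Vps15KO EBSS and 1949, 1878.5 and 1907 in WT EBSS libraries, which overlapped. It had 1802, 1719 and 1689.5 in Vps15KO basal libraries, all above the 1476, 1572 and 1394.5 of WT basal libraries. The Vps15KO effect was 0.23 ± 0.06 in basal medium (adjusted p = 0.00285) and -0.03 ± 0.06 in EBSS (adjusted p = 0.738). After EBSS Atg13 rose by 0.36 ± 0.06 in WT (adjusted p = 3.24e-05), while the change in Vps15KO was 0.11 ± 0.06 (adjusted p = 0.121). The basal difference and the WT change share the WT basal libraries.

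Ulk2, the paralogue of Ulk1, averaged 1037 ± 58.2 normalized counts in Vps15KO EBSS, 1430 ± 25.4 in WT EBSS, 979.7 ± 22.8 in Vps15KO basal and 1111 ± 101 in WT basal libraries. It was lower in Vps15KO in EBSS, with a difference of -0.45 ± 0.07 (adjusted p = 1.67e-05). In basal medium the difference was -0.17 ± 0.07 (adjusted p = 0.0379), a call that ended on leaving out any of 5 libraries (Vps15KO EBSS replicate 2, Vps15KO basal replicate 2 or 3, WT basal replicate 1 or 3). The rise of Ulk2 in WT of 0.36 ± 0.07 (adjusted p = 0.000179) was 0.08 with the length and GC correction (adjusted p = 0.201). The ratio of Ulk1 to Ulk2 per kilobase was 2.30 ± 0.113 in Vps15KO EBSS, 2.11 ± 0.101 in WT EBSS, 1.64 ± 0.0623 in Vps15KO basal and 1.40 ± 0.0741 in WT basal libraries. Atg101, which stabilizes ATG13, was the member of the complex that went down. After EBSS it changed by -0.30 ± 0.10 in Vps15KO (adjusted p = 0.0172) and by -0.34 ± 0.10 in WT (adjusted p = 0.0061), and with the length and GC correction the changes were -0.10 (adjusted p = 0.211) and -0.04 (adjusted p = 0.605). The fall in Vps15KO was not called without Vps15KO EBSS replicate 2 or Vps15KO basal replicate 2, and that in WT was -0.19 without WT basal replicate 2 (adjusted p = 0.0227). In EBSS Atg101 was higher in Vps15KO by 0.26 ± 0.10 (adjusted p = 0.0327), a call that ended without any of the 3 WT EBSS libraries or Vps15KO EBSS replicate 1 or 3. Its basal Vps15KO effect of 0.22 ± 0.10 (adjusted p = 0.069) was called at 0.37 without WT basal replicate 2 (adjusted p = 8.95e-05) and at 0.39 with the length and GC correction (adjusted p = 5.26e-05).

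**Figure D3:**
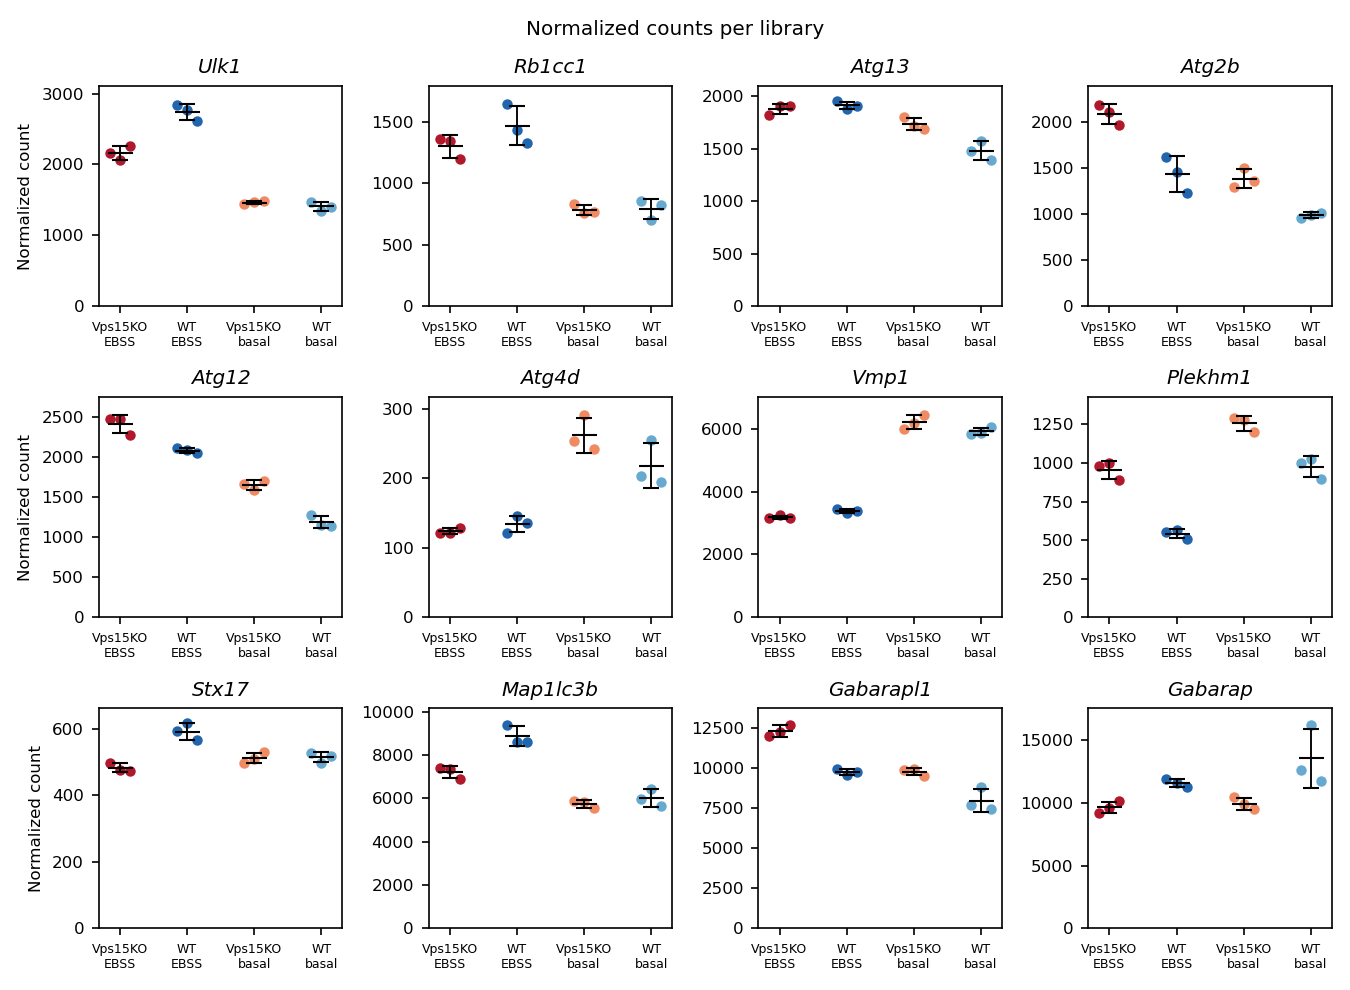
Normalized counts per library (points) of 12 genes in the 4 groups, with the mean and 1 SD (bars, n = 3) on axes that start at 0. Ulk1, Rb1cc1, Atg2b and Atg12 are higher in EBSS than in basal libraries of the same genotype and Atg4d, Vmp1 and Plekhm1 lower; Gabarap shows WT basal replicate 2 at 16232, above the 12639 and 11790 of the other WT basal libraries.

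ATG2 proteins are channels that carry lipid from the endoplasmic reticulum into the growing membrane. Atg2b had 2183, 2111.5 and 1971 normalized counts in Vps15KO EBSS libraries, all above the 1620.3, 1456 and 1230.5 of WT EBSS libraries. It had 1299.7, 1499.6 and 1366 in Vps15KO basal libraries, all above the 956, 989.7 and 1019 of WT basal libraries. EBSS libraries also lay above basal libraries in each genotype. Atg2b rose after EBSS by 0.58 ± 0.08 in Vps15KO (adjusted p = 1.32e-05) and by 0.52 ± 0.08 in WT (adjusted p = 2.92e-05), and was higher in Vps15KO by 0.54 ± 0.08 in EBSS (adjusted p = 2.05e-05) and by 0.48 ± 0.08 in basal medium (adjusted p = 7.93e-05). With the length and GC correction the EBSS changes were 0.34 in Vps15KO and 0.28 in WT, both still called. Its paralogue Atg2a moved otherwise, with a change after EBSS of -0.12 ± 0.07 in Vps15KO (adjusted p = 0.181) and a fall, at -0.37 ± 0.07, in WT (adjusted p = 0.000309). The Vps15KO change of Atg2a was called at -0.26 with the length and GC correction (adjusted p = 0.0013) and at -0.21 with quantile normalization (adjusted p = 0.0224). In EBSS Atg2a was higher in Vps15KO by 0.27 ± 0.07 (adjusted p = 0.00411), and its basal difference of 0.03 was called at 0.17 with the length and GC correction (adjusted p = 0.0192).

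Atg9a, the scramblase of the vesicles that seed the membrane, had no call for EBSS. It was higher in Vps15KO by 0.27 ± 0.06 in EBSS (adjusted p = 0.000909) and by 0.16 ± 0.06 in basal medium (adjusted p = 0.0309), the basal call ending with quantile normalization, without the filter, or without Vps15KO basal replicate 2 or 3 or WT basal replicate 3. In the annotation 1832 of the 5762 exonic bases of Atg9a also belong to Gm29253 on the same strand. The WIPI proteins, which bind PI3P, changed little. Wipi2 rose by 0.14 ± 0.06 after EBSS in Vps15KO (adjusted p = 0.0419), a call that ended without any of 5 libraries (replicate 1 or 2 of Vps15KO EBSS, 2 of WT EBSS, 2 or 3 of Vps15KO basal) and at -0.01 with the length and GC correction, under which Wipi2 was called at -0.17 after EBSS in WT (adjusted p = 0.0108). Wdr45b was higher in Vps15KO in EBSS by 0.21 ± 0.06 (adjusted p = 0.00493). Wipi1 and Wdr45 had no call, although without WT basal replicate 2 and WT EBSS replicate 1 they were lower in Vps15KO in EBSS, at -0.24 for Wipi1 (adjusted p = 0.00253) and -0.18 for Wdr45 (adjusted p = 0.0157).

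Of the 4 genes that rose after EBSS in both genotypes and by at least 0.58 in 1 of them or more (Ulk1, Rb1cc1, Atg2b and Atg12), the sequence before the start of transcription is shown for Ulk1 and Atg2b. A choice by at least 0.58 in both genotypes would have left Rb1cc1 alone, which had no usable promoter sequence and is named only. The sequences are the 250 bases before the start in RefSeq (GRCm38.p6, mm10), written 5′ to 3′ on the strand of the gene, at chr5:110810082-110810331 on the minus strand for Ulk1 and chr12:105685242-105685491 on the minus strand for Atg2b. The motifs searched, 4 in all, were looked for on both strands of the windows from 250 bases before to 50 after the start, namely TCACGTG (the core of the CLEAR element that TFEB and TFE3 bind), CACGTG (the E-box, which lies within it), GTAAACA (a FOXO site) and TGATGNAA (the ATF4 element). The Ulk1 and Atg2b windows held none of these letters.
Ulk1: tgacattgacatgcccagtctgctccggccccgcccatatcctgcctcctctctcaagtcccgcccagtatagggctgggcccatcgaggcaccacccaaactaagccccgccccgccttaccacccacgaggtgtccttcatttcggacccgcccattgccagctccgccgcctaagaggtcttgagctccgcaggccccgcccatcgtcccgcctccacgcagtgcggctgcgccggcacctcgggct
Atg2b: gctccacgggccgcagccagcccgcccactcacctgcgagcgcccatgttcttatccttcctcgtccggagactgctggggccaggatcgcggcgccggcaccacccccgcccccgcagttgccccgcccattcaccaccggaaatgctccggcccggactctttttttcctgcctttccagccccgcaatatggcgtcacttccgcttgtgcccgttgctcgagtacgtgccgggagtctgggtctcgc
Windows were found for 28 of the 34 genes. Those of Atg4c lay 4775 and 4988 bases from the start of the gene. TCACGTG was in 2 of the 28 genes (7.14%), against 4.29% of all 27025 genes with a window, and CACGTG in 3 of the 28 (10.7%), against 8.09%. GTAAACA and TGATGNAA were in 0 of the 28 genes, against 4.05% and 4.51% of all genes. The genes that hold an E-box are Atg3, Atg5 and Atg7, singled out after their matches were seen, and Atg3 and Atg5 are printed with the motif in capitals. They lie at chr16:45158579-45158828 for Atg3 and chr10:44268089-44268338 for Atg5, both on the plus strand and from the same source. The window of Atg7 precedes an internal start, 27969 bases from the start of the gene, so its match is not before the first start and its sequence is not shown. Of the 3, Atg3 was called higher after EBSS in both genotypes and Atg5 in WT, and Atg7 was called lower in both. A match is a description of letters and not a site of binding.
Atg3: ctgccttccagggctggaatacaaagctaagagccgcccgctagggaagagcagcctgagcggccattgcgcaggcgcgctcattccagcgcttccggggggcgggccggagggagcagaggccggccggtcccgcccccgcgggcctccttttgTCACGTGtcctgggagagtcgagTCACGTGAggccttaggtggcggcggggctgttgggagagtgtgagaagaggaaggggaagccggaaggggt
Atg5: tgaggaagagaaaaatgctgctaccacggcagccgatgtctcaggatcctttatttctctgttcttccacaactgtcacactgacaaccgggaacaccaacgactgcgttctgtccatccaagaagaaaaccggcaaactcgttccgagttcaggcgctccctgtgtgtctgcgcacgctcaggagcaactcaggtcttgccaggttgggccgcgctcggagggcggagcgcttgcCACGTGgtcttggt

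Among the conjugation genes, Atg12, the ubiquitin-like protein that is joined to ATG5, separated all 4 groups, as did Atg3, described next. Atg12 had 2478, 2481 and 2282 normalized counts in Vps15KO EBSS libraries and 2114.5, 2088 and 2052 in WT EBSS libraries. It had 1667, 1593 and 1705 in Vps15KO basal libraries and 1284, 1154 and 1146 in WT basal libraries. No library of any group overlapped another group. The rise after EBSS was 0.54 ± 0.06 in Vps15KO (adjusted p = 9.4e-07) and 0.79 ± 0.06 in WT (adjusted p = 4.03e-09), and Vps15KO was higher by 0.21 ± 0.06 in EBSS (adjusted p = 0.00738) and 0.46 ± 0.06 in basal medium (adjusted p = 3.98e-06). Under the length and GC correction these were 0.33, 0.51, 0.13 and 0.30, and all 4 were still called.

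Atg3, the E2-like enzyme that hands ATG8 proteins to lipid, averaged 1688 ± 117 normalized counts in Vps15KO EBSS, 1368 ± 69.9 in WT EBSS, 1213 ± 59.6 in Vps15KO basal and 962 ± 47.5 in WT basal libraries. It rose after EBSS by 0.47 ± 0.07 in Vps15KO (adjusted p = 1.61e-05) and 0.49 ± 0.07 in WT (adjusted p = 4.92e-06), and was higher in Vps15KO by 0.30 ± 0.07 in EBSS (adjusted p = 0.00104) and 0.33 ± 0.07 in basal medium (adjusted p = 0.000457). With the length and GC correction both Vps15KO effects were 0.19 and still called. Atg7, the E1-like enzyme that acts before ATG3, went the other way after EBSS, with a change of -0.17 ± 0.06 in Vps15KO (adjusted p = 0.0319) and -0.26 ± 0.06 in WT (adjusted p = 0.00168). The Vps15KO change of Atg7 was not called without Vps15KO EBSS replicate 1 or 2 or Vps15KO basal replicate 1 or 2. Atg5 rose after EBSS in WT by 0.24 ± 0.07 (adjusted p = 0.00673) and was higher in Vps15KO in basal medium by 0.29 ± 0.07 (adjusted p = 0.00182), which was 0.13 with the length and GC correction (adjusted p = 0.0864). Atg16l1, which places the ATG12-ATG5 conjugate on the membrane, averaged 689.7 ± 2.03 in Vps15KO EBSS and 584.7 ± 17.6 in WT EBSS libraries, and rose after EBSS by 0.32 ± 0.08 in Vps15KO (adjusted p = 0.00296), while the change in WT was 0.08 ± 0.08 (adjusted p = 0.435). In EBSS it was higher in Vps15KO by 0.23 ± 0.08 (adjusted p = 0.022), a call that ended without any of the 3 Vps15KO EBSS libraries or WT EBSS replicate 1. Atg10, the E2-like enzyme for ATG12, was lower in Vps15KO in EBSS, with a difference of -0.35 ± 0.11 (adjusted p = 0.0113), a call that ended without WT EBSS replicate 3 at -0.28 (adjusted p = 0.0663), and its basal difference of -0.20 ± 0.11 (adjusted p = 0.129) was called at -0.32 with the length and GC correction (adjusted p = 0.0136).

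The ATG4 proteases trim ATG8 proteins before conjugation and free them from lipid afterwards, and Atg4d fell most. Atg4d had 121, 121.3 and 128 normalized counts in Vps15KO EBSS libraries, against 254, 290.1 and 241 in Vps15KO basal libraries. In WT it had 122, 145.5 and 136 in EBSS libraries, against 203, 255 and 195 in basal libraries. EBSS libraries lay below basal libraries in each genotype, and the genotypes overlapped in both media. The log2 change was -0.94 ± 0.10 in Vps15KO (adjusted p = 5.71e-07) and -0.60 ± 0.10 in WT (adjusted p = 6.42e-05). Its Vps15KO effect in basal medium, 0.24 ± 0.10 (adjusted p = 0.051), was called at 0.35 without WT basal replicate 2 (adjusted p = 0.00455). Of 7264 exonic bases of Atg4d, 1405 overlap exons of Kri1 on the other strand, and the sources used here do not say whether strand was used in counting, so reads of the genes cannot be told apart there. Kri1 changed after EBSS by -0.18 ± 0.08 in Vps15KO (adjusted p = 0.0745) and by -0.46 ± 0.08 in WT (adjusted p = 9.03e-05), and was higher in Vps15KO by 0.56 in EBSS and 0.28 in basal medium.

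Atg4b, the most active ATG4 protease, changed after EBSS by -0.17 ± 0.06 in Vps15KO (adjusted p = 0.0234) and by -0.28 ± 0.06 in WT (adjusted p = 0.000459), the Vps15KO call ending without Vps15KO EBSS replicate 1 or 2 or Vps15KO basal replicate 2 or 3. Atg4c was higher in Vps15KO by 0.40 ± 0.13 in EBSS (adjusted p = 0.0147) and 0.51 ± 0.13 in basal medium (adjusted p = 0.00308). The basal difference of Atg4c was 0.31 without WT basal replicate 2 (adjusted p = 0.0104), and the EBSS call ended without Vps15KO EBSS replicate 1 or 3 or WT EBSS replicate 1. Atg4a was lower in Vps15KO in basal medium, with a difference of -0.24 ± 0.09 (adjusted p = 0.0242), a call that ended without any of 4 libraries (Vps15KO basal replicate 1 or 2, WT basal replicate 1 or 3). Its EBSS difference of -0.15 ± 0.09 (adjusted p = 0.164) was called at -0.27 with the length and GC correction (adjusted p = 0.00332). In EBSS Atg4b and Atg7 were higher in Vps15KO by 0.16 and 0.17 (adjusted p = 0.0317 and 0.0307), and leaving out Vps15KO EBSS replicate 1 or 3 or WT EBSS replicate 2 or 3 ended both calls, as did WT EBSS replicate 1 for Atg4b.

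ATG8 proteins are the ubiquitin-like tags of the autophagosome, of the LC3 branch (Map1lc3a, Map1lc3b) and the GABARAP branch (Gabarap, Gabarapl1, Gabarapl2), and their transcripts changed in make-up. Gabarapl1 averaged 12292 ± 365 normalized counts in Vps15KO EBSS, 9731 ± 187 in WT EBSS, 9778 ± 225 in Vps15KO basal and 7969 ± 728 in WT basal libraries. It rose after EBSS by 0.33 ± 0.06 in Vps15KO (adjusted p = 0.000309) and 0.29 ± 0.06 in WT (adjusted p = 0.000651), and was higher in Vps15KO by 0.34 ± 0.06 in EBSS (adjusted p = 0.000189) and 0.30 ± 0.06 in basal medium (adjusted p = 0.000591). With quantile normalization the Vps15KO effect on Gabarapl1 in EBSS was 0.52. In the annotation 570 of its 2013 exonic bases overlap 1700101I11Rik on the other strand, a gene with at most 13.8 normalized counts in any library.

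Gabarap moved against Gabarapl1 between genotypes. It had 9237, 9578 and 10122 normalized counts in Vps15KO EBSS libraries, all below the 11907, 11573 and 11300 of WT EBSS libraries. It had 10457, 9910.1 and 9498.5 in Vps15KO basal libraries, all below the 12639, 16232 and 11790 of WT basal libraries. The Vps15KO effect was -0.27 ± 0.09 in EBSS (adjusted p = 0.0149), which was not called without Vps15KO EBSS replicate 1 (adjusted p = 0.0629). In basal medium it was -0.43 ± 0.09 (adjusted p = 0.000373), and without WT basal replicate 2, the highest library, -0.29 (adjusted p = 0.00013). A fall of Gabarap after EBSS in WT of -0.21 ± 0.09 (adjusted p = 0.0433) was -0.07 without that library (adjusted p = 0.269) and ended on leaving out any of 8 others as well. Gabarapl2 was lower in Vps15KO, with a difference of -0.23 ± 0.07 in each medium (adjusted p = 0.0147 in EBSS and 0.0141 in basal medium). The EBSS call of Gabarapl2 ended without Vps15KO EBSS replicate 2 or WT EBSS replicate 1, and the basal call without Vps15KO basal replicate 1.

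In the LC3 branch, Map1lc3b rose and Map1lc3a fell after EBSS. Map1lc3b had 7389.5, 7352 and 6902.5 normalized counts in Vps15KO EBSS libraries and 9401, 8608 and 8585 in WT EBSS libraries. It had 5872.5, 5809 and 5544 in Vps15KO basal libraries and 5953, 6435 and 5644 in WT basal libraries. The genotypes were apart in EBSS and overlapped in basal medium. The rise was 0.33 ± 0.06 in Vps15KO (adjusted p = 0.000265) and 0.56 ± 0.06 in WT (adjusted p = 4.16e-07), and the Vps15KO effect in EBSS was -0.30 ± 0.06 (adjusted p = 0.000532). Zcchc14, which overlaps 58 of the 7517 exonic bases of Map1lc3b on the other strand, also rose after EBSS, by 0.76 in Vps15KO and 0.99 in WT. Map1lc3a changed by -0.36 ± 0.09 in Vps15KO (adjusted p = 0.00223) and by -0.41 ± 0.09 in WT (adjusted p = 0.0005), the WT change being -0.27 (adjusted p = 0.000225) when WT basal replicate 2 was left out and -0.11 with the length and GC correction (adjusted p = 0.096). With that correction the change in Vps15KO was -0.16 (adjusted p = 0.0169). In basal medium Map1lc3a was lower in Vps15KO, with a difference of -0.25 ± 0.09 (adjusted p = 0.0206), a call that ended with the length and GC correction (-0.01, adjusted p = 0.836) and without WT basal replicate 2 (-0.11, adjusted p = 0.101) or Vps15KO basal replicate 3 (-0.20, adjusted p = 0.0971).

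Per kilobase the 5 ATG8 genes together gave 18583 ± 421 counts in Vps15KO EBSS, 19548 ± 481 in WT EBSS, 17219 ± 557 in Vps15KO basal and 19432 ± 2660 in WT basal libraries. As a share of this sum, Gabarapl1 held 36.3% ± 0.257 in Vps15KO EBSS, 27.4% ± 0.441 in WT EBSS, 31.2% ± 0.568 in Vps15KO basal and 22.6% ± 0.971 in WT basal libraries (SD, n = 3 each). Gabarap held 38.4% ± 0.908 in Vps15KO EBSS, 43.9% ± 0.395 in WT EBSS, 42.8% ± 0.807 in Vps15KO basal and 51.5% ± 1.84 in WT basal libraries. The shares of Gabarapl1 did not overlap between any of the 4 groups. The ratio of Gabarapl1 to Gabarap per kilobase was 0.947 ± 0.0157 in Vps15KO EBSS, 0.623 ± 0.0149 in WT EBSS, 0.73 ± 0.0268 in Vps15KO basal and 0.44 ± 0.034 in WT basal libraries. Map1lc3b held 14.8% ± 0.873 in Vps15KO EBSS, 17.2% ± 0.476 in WT EBSS, 12.7% ± 0.0653 in Vps15KO basal and 11.8% ± 0.815 in WT basal libraries. Shares of a sum depend on each other, were not tested, and change with the transcript length taken for each gene.

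**Figure D4:**
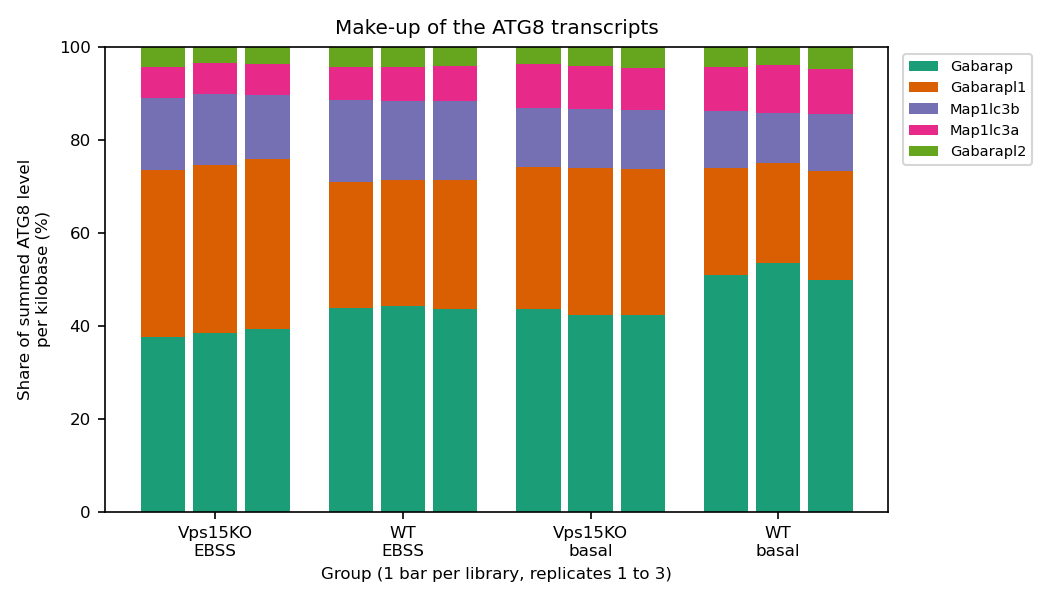
Share of the summed ATG8 level (normalized counts per kilobase, in percent) held by each of the 5 ATG8 genes, with 1 stacked bar per library. The Gabarapl1 segment is tallest in the Vps15KO EBSS libraries at 36.1% to 36.6% and shortest in the WT basal libraries at 21.5% to 23.3%, and the Gabarap segment is tallest in the WT basal libraries at 49.9% to 53.5%.

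VMP1 and TMEM41B are scramblases of the endoplasmic reticulum that even out its lipids where the membrane sheet grows. Vmp1 had 3157, 3241 and 3147 normalized counts in Vps15KO EBSS libraries, against 5991, 6176 and 6446 in Vps15KO basal libraries. In WT it had 3446, 3334 and 3367 in EBSS libraries, against 5827, 5874 and 6054 in basal libraries. All EBSS libraries lay far below all basal libraries. The genotypes did not overlap in EBSS, where Vps15KO was lower, and overlapped in basal medium. The fall was -0.96 ± 0.05 in Vps15KO (adjusted p = 5.74e-11) and -0.80 ± 0.05 in WT (adjusted p = 4.33e-10), in Vps15KO close to that of Atg4d. Between genotypes Vmp1 differed by -0.09 ± 0.05 in EBSS (adjusted p = 0.167) and 0.07 ± 0.05 in basal medium (adjusted p = 0.286), and the EBSS difference was called at -0.21 with the length and GC correction (adjusted p = 0.00109). The annotated transcripts of Vmp1 include 92 bases of Mir21a. Tmem41b moved the other way, with a rise after EBSS in WT of 0.28 ± 0.06 (adjusted p = 0.000672) and a higher level in Vps15KO in basal medium by 0.26 ± 0.06 (adjusted p = 0.00153). Under the length and GC correction these were 0.05 (adjusted p = 0.508) and 0.08 (adjusted p = 0.246).

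Among the genes of the fusion step, Plekhm1, an adaptor that binds RAB7, the HOPS tether and ATG8 proteins, had the largest differences between genotypes. It had 981, 999 and 890.0 normalized counts in Vps15KO EBSS libraries, all above the 553, 569 and 508 of WT EBSS libraries. It had 1293, 1278 and 1200.2 in Vps15KO basal libraries, all above the 1001, 1026 and 899 of WT basal libraries. The Vps15KO effect was 0.79 ± 0.07 in EBSS (1.72-fold, adjusted p = 3.08e-08) and 0.36 ± 0.07 in basal medium (adjusted p = 0.0003). The change of Plekhm1 after EBSS was -0.38 ± 0.07 in Vps15KO (adjusted p = 0.000203) and -0.81 ± 0.07 in WT (adjusted p = 1.92e-08). In the annotation 334 of its 5968 exonic bases overlap Arhgap27os1 on the other strand.

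Stx17, the SNARE of the closed autophagosome, had 499, 475 and 474 normalized counts in Vps15KO EBSS libraries, all below the 593, 618 and 566 of WT EBSS libraries. It had 499, 509.7 and 530.5 in Vps15KO basal libraries, which overlapped the 528, 497.5 and 519 of WT basal libraries. The Vps15KO effect was -0.28 ± 0.07 in EBSS (adjusted p = 0.00147) and -0.0047 in basal medium (adjusted p = 0.957). Its change after EBSS was -0.08 ± 0.07 in Vps15KO (adjusted p = 0.308) and 0.19 ± 0.07 in WT (adjusted p = 0.0177), the WT change being -0.14 with the length and GC correction (adjusted p = 0.0673) and not called without WT EBSS replicate 2 (adjusted p = 0.0784). The same correction gave Stx17 a called change of -0.34 after EBSS in Vps15KO (adjusted p = 0.000156) and a called Vps15KO effect of -0.16 in basal medium (adjusted p = 0.0304). Epg5, a tether of autophagosomes and lysosomes, rose by 0.26 ± 0.08 in each genotype (adjusted p = 0.00753 in Vps15KO and 0.00578 in WT), and with the length and GC correction the changes were 0.01 in Vps15KO (adjusted p = 0.886) and 0.04 in WT (adjusted p = 0.526). With quantile normalization neither change of Epg5 was called (0.16 in Vps15KO and 0.17 in WT). Its Vps15KO effects, 0.17 in each medium and not called, were called with the length and GC correction at 0.16 in EBSS (adjusted p = 0.0203) and 0.19 in basal medium (adjusted p = 0.00641). Snap29, the SNARE partner of STX17, was higher in Vps15KO in basal medium by 0.23 ± 0.07 (adjusted p = 0.00769), which was 0.08 with the length and GC correction (adjusted p = 0.274). Under that correction Snap29 was called lower after EBSS in Vps15KO, at -0.21 (adjusted p = 0.0128). Tecpr1 had changes from -0.10 to 0.05 in the 4 effects and no call. With the length and GC correction it was called at -0.19 after EBSS in Vps15KO (adjusted p = 0.0129) and at 0.16 for Vps15KO in basal medium (adjusted p = 0.0291), and with quantile normalization at -0.16 after EBSS in Vps15KO (adjusted p = 0.0442).

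The difference of the EBSS effects between genotypes, Vps15KO minus WT, asks whether the response to EBSS itself differed. It was called higher for 1 of the 34 genes (2.94%) and lower for 4 (11.8%), against 9.55% and 8.24% of all genes. Ulk1 rose less in Vps15KO, with a difference of -0.39 ± 0.08 (adjusted p = 0.00341), and Plekhm1 fell less, with a difference of 0.43 ± 0.10 (adjusted p = 0.00667). These calls held under all 21 other settings and sets of libraries tried, leaving out each library included. Those of Atg13 at -0.25 ± 0.08 (adjusted p = 0.0428), Atg12 at -0.25 ± 0.09 (adjusted p = 0.0492) and Stx17 at -0.28 ± 0.09 (adjusted p = 0.04998) lay at the threshold. The Atg13 call ended on leaving out any library but WT basal replicate 2 (adjusted p from 0.00427 to 0.105), the Atg12 call on any but WT basal replicates 1 and 2 (0.0203 to 0.132), and the Stx17 call on any but WT EBSS replicate 3 and WT basal replicate 2 (0.0474 to 0.128). Ulk2 (-0.28 ± 0.10, adjusted p = 0.0521), Map1lc3b (-0.23 ± 0.09, adjusted p = 0.0781) and Atg4d (-0.34 ± 0.15, adjusted p = 0.117) were not called. Under the length and GC correction the difference was called for Ulk2 at -0.23 (adjusted p = 0.0366) and Map1lc3b at -0.31 (adjusted p = 0.00603). That of Ulk2 was also called with the stricter filter (adjusted p = 0.0448), without Vps15KO EBSS replicate 3 (-0.32, adjusted p = 0.0469) and without WT basal replicate 1 (-0.34, adjusted p = 0.0241). Without WT basal replicate 2 and WT EBSS replicate 1, the difference was called for Atg4d at -0.50 (adjusted p = 0.00888), Map1lc3b at -0.24 (adjusted p = 0.0171) and Wipi1 at -0.26 (adjusted p = 0.0444), and was not called for Atg12 at -0.22 (adjusted p = 0.052) or Stx17 at -0.25 (adjusted p = 0.0669).

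**Figure D5:**
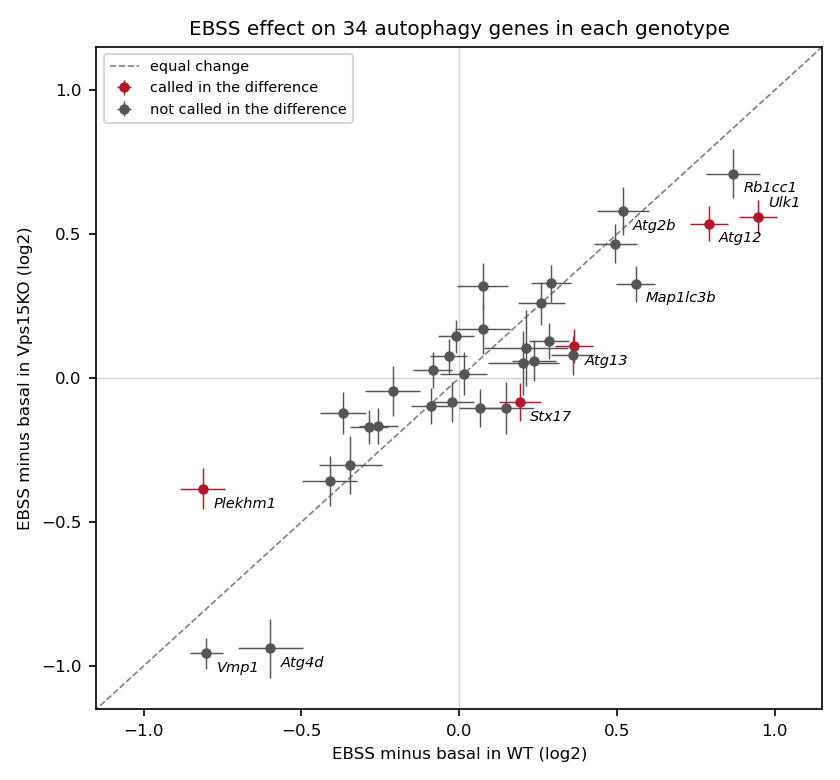
EBSS effect on each of the 34 genes in Vps15KO (vertical axis) and in WT (horizontal axis), as log2 changes with bars of 1 SE; the dashed line marks equal change and red points are called in the difference. Ulk1 and Atg12 lie right of the line, with smaller rises in Vps15KO, and Plekhm1 lies above it, with a smaller fall in Vps15KO (-0.38 against -0.81 in WT).

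Of 23 other genes of the pathway, listed by function, all of them tested, EBSS raised 8 and lowered 6 in Vps15KO and raised 10 and lowered 7 in WT, and Vps15KO was higher at 12 and lower at 4 in EBSS and higher at 10 and lower at 3 in basal medium. After EBSS these are 34.8% and 26.1% in Vps15KO, against 25.9% and 26.1% of all genes, and 43.5% and 30.4% in WT, against 31.4% and 31.3%. Between genotypes they are 52.2% and 17.4% in EBSS, against 29.4% and 27.8% of all genes, and 43.5% and 13% in basal medium, against 29.3% and 29.2%. Atg14, the subunit that sends class 3 PI3K to the forming autophagosome, rose more than any of the 34 genes, by 1.34 in Vps15KO (adjusted p = 5.86e-12) and 1.29 in WT (adjusted p = 8.04e-12). Uvrag, the subunit of the endosomal complex, rose by 0.61 in Vps15KO and 0.86 in WT. Rubcn, an inhibitor of that complex, changed by -0.24 in Vps15KO (adjusted p = 0.0073) and -0.75 in WT (adjusted p = 3.52e-08), and its difference of 0.51 was called (adjusted p = 0.00139). Zfyve1 encodes DFCP1, a PI3P-binding protein of the site where autophagosomes form. It rose in WT by 0.55 (adjusted p = 9.07e-07) and changed by -0.10 in Vps15KO (adjusted p = 0.198), a difference of -0.65 (adjusted p = 9.39e-05). Atg16l2, the paralogue of Atg16l1, changed by -0.79 in Vps15KO and -1.32 in WT, with a difference of 0.54 (adjusted p = 0.00608). Vamp8, the lysosomal SNARE that pairs with STX17, was lower in Vps15KO, with a difference of -0.66 in EBSS (adjusted p = 4.6e-06) and -0.78 in basal medium (adjusted p = 6.51e-07). WT basal replicate 2 had 1959 normalized counts of Vamp8, against 1528 and 1460.5 in the other WT basal libraries. In the difference 6 of the 23 genes were called higher and 2 lower (26.1% and 8.7%, against 9.55% and 8.24% of all genes). The genes named of these 23 were chosen after their values were seen. Their calls were not examined under the other settings or with libraries left out.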

How the data were processed

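Poly-A RNA of 12 libraries was measured. Per the submitters' processing notes, STAR 2.7.10b, featureCounts, DESeq2 and limma were used with mm10, and their roles are not given there. Per the labels' protocols, second strands were made with dUTP. Whether counting used strand is not given in the sources used here. The authors deposited variance-stabilized values on a log2 scale for 32721 genes.

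Values were turned back into reads from the deposited floor of 3.83. In each library 100.00% of values came out whole, within 0.001 reads at low counts and within a limit that rose with the count at high ones. There were 21278921 to 21698584 reads in genes per library, and normalized counts are these reads divided by size factors. A count of 0 allows up to 3 reads, and such limits cover counting error only. Genes with a mean over the 12 libraries under 1 above the floor were left out, leaving 14279.

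The deposited log2 values were fitted with limma 3.58.1 in R 4.3.3 (group means, 8 residual degrees of freedom, variance trend, two-sided) in 5 comparisons, the adjustment of Benjamini and Hochberg over all genes tested, and calls at an adjusted p under 0.05. The fit was also run on simulated data, and no result above rests on that run. A gene got its value in every library if it was called with a change of at least 0.58 on the log2 scale (1.5-fold) in an EBSS or Vps15KO effect, or was called in the difference. Values of Gabarap and Map1lc3b were added to show the ATG8 genes. Levels per kilobase use the longest GENCODE vM21 basic transcript, and promoter windows are from RefSeq (GRCm38.p6). The 21 alternatives covered the filter, normalization, test, replicate block, threshold and libraries left out. The members and lists were chosen with earlier results of these data known.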

Additional observations from a re-analysis of the deposited data

Results flagged for a closer look

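In 5 of the 34 genes the EBSS effect differed between genotypes by a test of the difference itself (Vps15KO minus WT, limma, adjusted over all genes). That difference was called higher for 1 of the 34 (2.94%) and lower for 4 (11.8%), against 9.55% and 8.24% of all genes. The difference was -0.39 for Ulk1, -0.25 for Atg13, -0.25 for Atg12, -0.28 for Stx17 and 0.43 for Plekhm1. Those of Ulk1 and Plekhm1 were called under all 21 alternatives, and those of Atg13, Atg12 and Stx17 were not.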

How the results depend on the processing

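Of 80 calls over the 5 comparisons, 49 held under all 21 alternatives and 58 held on leaving out any 1 library. With the length and GC correction, 3 changes turned their sign, to -0.15 for Ulk2 after EBSS in Vps15KO (adjusted p = 0.0287), -0.0135 for Wipi2 after EBSS in Vps15KO (adjusted p = 0.857) and -0.14 for Stx17 after EBSS in WT (adjusted p = 0.0673). Besides these, that correction ended 14 calls and added 21, quantile normalization ended 10 and added 7, and leaving out both WT libraries named below ended 6 and added 16. The correction gave 11 genes lower after EBSS in Vps15KO, where the count was 7, and 11 lower in Vps15KO in EBSS, where it was 7. Over all genes the correction gave 4117 and 4296 of 13527 lower, against 3721 and 3973 of 14279 in the main fit. Without WT basal replicate 2 and WT EBSS replicate 1, 11 were lower in Vps15KO in EBSS, as were 4202 of all 14279 genes. At an adjusted p under 0.01 the counts were 4 lower after EBSS in Vps15KO, 1 lower in Vps15KO in basal medium, 8 higher and 4 lower in Vps15KO in EBSS, and 1 lower in the difference. Over all 14279 genes the counts at that threshold, in the same order, were 2628, 3303, 3365, 3164 and 520. On leaving out 1 library the counts ranged from 4 to 7 lower after EBSS in Vps15KO, 3 to 5 lower in Vps15KO in basal medium, 8 to 15 higher in Vps15KO in EBSS, and in the difference 1 to 2 higher and 1 to 6 lower. Over all 14279 genes these ranges were 3023 to 4237, 3702 to 4166, 3769 to 4586, 1023 to 1659 and 832 to 1516. Without the filter 1 gene was lower in the difference, and with the replicate block also 1, against 4 without it. Over all genes these were 854 of 29989, 1175 of 14279 and 1177 of 14279. Libraries of the same number tended to deviate together between genotypes within a medium. In EBSS their correlations were 0.039 to 0.124, against -0.111 to -0.012 for other pairs. In basal medium they were 0.0825 to 0.26, against -0.212 to 0.106. Between media within a genotype they were -0.155 to 0.0125. The main test took no pairing by number. The replicate block spanned both media, so a pairing within each medium was not modelled. With quantile normalization the median change of the 34 genes after EBSS in Vps15KO was -0.010, against 0.057. That of all genes moved down as well, to -0.054 from -0.019, so the 34 genes stayed above it. The causes of these shifts were not tested.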
